A study of Mus musculus with 12 samples.

Results

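The heat shock proteins and chaperones examined here are 44 genes, chosen by name from the 20989 gene loci of the RNA sequencing of auditory cortex in acute mouse brain slices. They comprise the HSP70 and HSP110 proteins, the HSP90 proteins, the small heat shock proteins, the J-domain co-chaperones, other co-chaperones, the mitochondrial chaperonin and 2 heat shock transcription factors. By the place where the protein works, 32 were counted as cytosolic, 6 as residents of the endoplasmic reticulum (ER), 4 as mitochondrial and 2 as factors. Coronal slices of 350 µm were cut from 6 C57bl6/J mice at 4 weeks of age, left for 15 min in choline chloride buffer at 32 °C, divided into hemispheres and rested for 45 min in artificial cerebrospinal fluid (aCSF), for which the labels give room temperature. The control hemisphere of each mouse then spent 1 h in fresh aCSF. The other hemisphere spent 1 h in cocktail aCSF, with 50 µM bicuculline, 100 µM norepinephrine, 50 µM carbamoylcholine, 100 µM dopamine, 40 µM ascorbic acid and 100 µM serotonin, and by the study's methods both hemispheres then had 1 h more in aCSF. The methods also give 32 °C for the solutions of each step, where the labels give room temperature for the 45 min rest. The cocktail blocks GABA-A receptors and supplies neuromodulators. Effects of raised neuronal activity and of the neuromodulators themselves cannot be told apart in this comparison. All 6 control and 6 cocktail libraries come from tissue that was cut, and tissue that was never sliced was not analysed here.

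Chaperones bind unfolded or newly made proteins and help them to fold, keep them from aggregating or pass them on for degradation. HSP70 proteins bind exposed hydrophobic stretches in a cycle driven by ATP, J-domain proteins bring clients to HSP70 and start its ATPase, nucleotide exchange factors such as the BAG proteins and HSP110 release the client, and HSP90 finishes the folding of kinases and receptors. In the cytosol, misfolded protein frees the transcription factor HSF1, which binds heat shock elements, repeats of the letters GAA in alternating orientation. In the ER, unfolded protein starts a separate programme, the unfolded protein response, which acts on promoters through the ER stress response element (ERSE). Neurons express many of these proteins constitutively, and inducible HSP70 genes are often found raised in tissue that was handled, warmed or deprived of oxygen.

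Expression was given as FPKM, in which the fragments of a gene are divided by the length of its transcript and by the fragments of protein-coding genes in that library, so levels of different genes can be compared with each other. Each library held between 10601067 and 19768881 reads on genes (median 15164166), and the reads behind a member's FPKM ranged from 4 for Hspa1l to 54439 for Hspa8. A locus was tested when its mean FPKM over the 12 libraries was at least 1, and it was called at an adjusted p under 0.05 from limma on log2(FPKM + 1) with the mouse as a block. For genes with low FPKM, this scale gives a smaller fold than the FPKM ratio. Of the 44 members, 43 were tested. Hspa1l, an HSP70 gene known for expression in the testis, was left out, with 0.12 to 0.29 FPKM over all libraries. The activity marker Fos, as a check of the treatment, had 230 to 401 FPKM in control and 568 to 754 FPKM in cocktail libraries.

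In control slices the constitutive cytosolic chaperones were the most abundant members. Hspa8 encodes Hsc70, the HSP70 of unstressed cells, and had 986 ± 66.0 FPKM (SD, n = 6), above 99.95% of all loci tested and 28.5% of the summed FPKM of the 43 members. Next came Hsp90ab1, the constitutive HSP90, with 364 ± 52.2 FPKM, Hsp90aa1, the inducible HSP90, with 296 ± 60.6 FPKM, and Hspa5, the HSP70 of the ER also called BiP, with 166 ± 13.0 FPKM. The 2 inducible HSP70 genes, Hspa1a and Hspa1b, had 29.7 ± 9.69 and 35.9 ± 13.4 FPKM, and together they came to 6.65% of the level of Hspa8. The mitochondrial members had 20.4 (Trap1) to 67.2 (Hspa9) FPKM, and the lowest levels were those of the small heat shock proteins Hspb8 (5.80 ± 0.493 FPKM) and Hspb6 (5.12 ± 0.889 FPKM). The order of neighbours was mostly within their spread. Of 42 neighbouring pairs in the order of control means, 3 did not overlap between libraries, namely Hspa8 and Hsp90ab1, Hspa5 and Hsph1, and Hsf1 and Dnajc3.

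**Figure D1:**
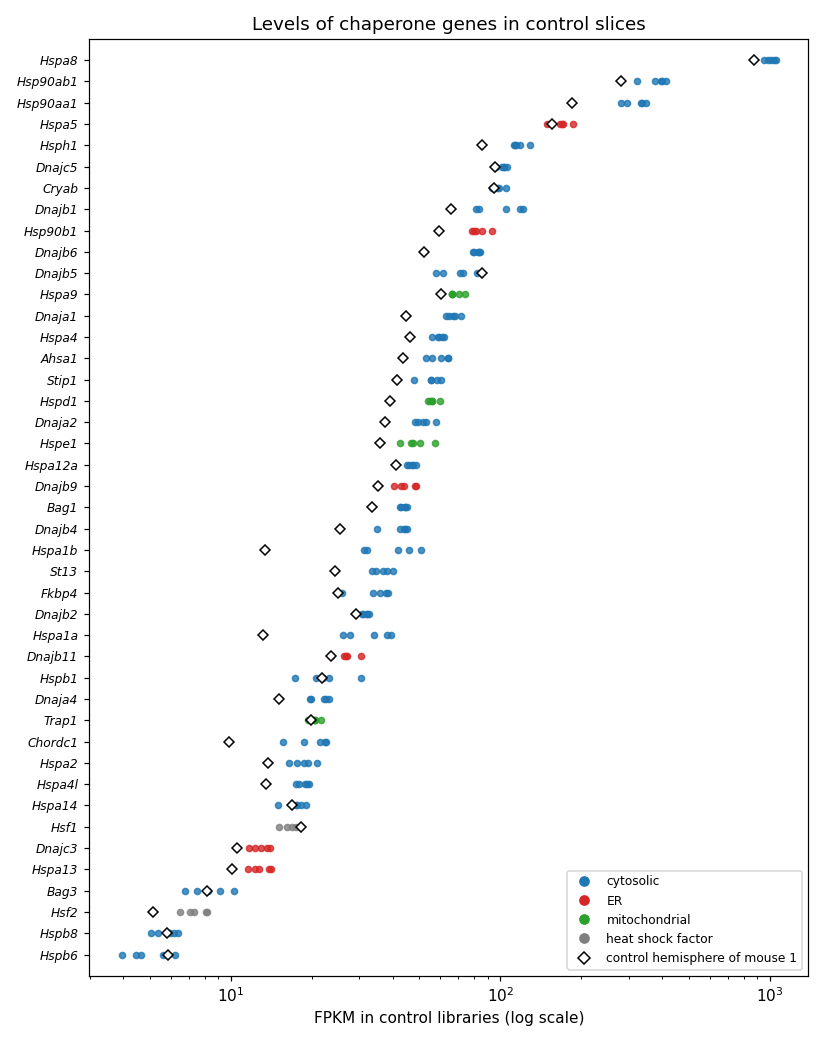
FPKM of the 43 tested chaperone genes in the 6 control libraries on a log axis, 1 point per library, ordered by mean and coloured by compartment, with the control hemisphere of mouse 1 as an open diamond. Hspa8 lies highest, at 871 to 1054 FPKM, and the diamond is the lowest of the 6 points for 32 of the 43 genes.

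One control library stood apart. The control hemisphere of mouse 1 had the lowest value of the 6 control libraries for 32 of the 43 members, against 50.1% of all loci tested, and the lowest of all 12 libraries for 30 members, against 41.1% of loci. Its summed FPKM over the members was 2818, against 3530 to 3682 in the other control libraries and 3634 to 4016 in the cocktail libraries. It was also the deepest library, with the lowest summed FPKM over all loci (290155), and 5 of the 6 astrocyte markers were lower in it than in the cocktail hemisphere of that mouse, all but Aldh1l1 (median difference over the 6 markers 0.45, log2). The part of these differences in the chaperone values was not tested. Where a fit without mouse 1 moved the log2 fold change of a named member, or a count or median over members, by over 1.5 times, the value without it is given. Other values below include mouse 1 unless stated.

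Of the 43 members tested, 5 were called (11.6%), all higher in the cocktail, against 1.5% of all 12032 loci called in either direction and 1.22% called higher. They were the J-domain protein Dnajb1, the inducible HSP70 genes Hspa1a and Hspa1b, the small heat shock protein Hspb1 and the ER chaperone Hspa5. No member was called lower, against 33 of the 12032 loci, and none was lower at an unadjusted p under 0.05. Of all loci, 968 passed that unadjusted threshold in either direction, 631 of them higher. Lower loci were thus few, and 0 of 43 members is near their share. At that unadjusted threshold 15 members (34.9%) were higher, against 5.24% of all loci. The other 10 were Hspa2, Hspa8, Hsp90aa1, Hspb6, Hspb8, Dnaja1, Dnaja4, Dnajb4, Bag3 and Dnajb9. The cocktail hemisphere was higher in all 6 mice for 8 members, against 3.64% of loci, and for 1 member, Dnajb1, the lowest cocktail library lay above the highest control library, against 0.715% of loci. Without mouse 1, 3 members were called (Dnajb1, Hspa5 and Hspb1), against 1.31% of loci, and 11 were higher at an unadjusted p under 0.05, against 4.79% of loci.

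**Figure D2:**
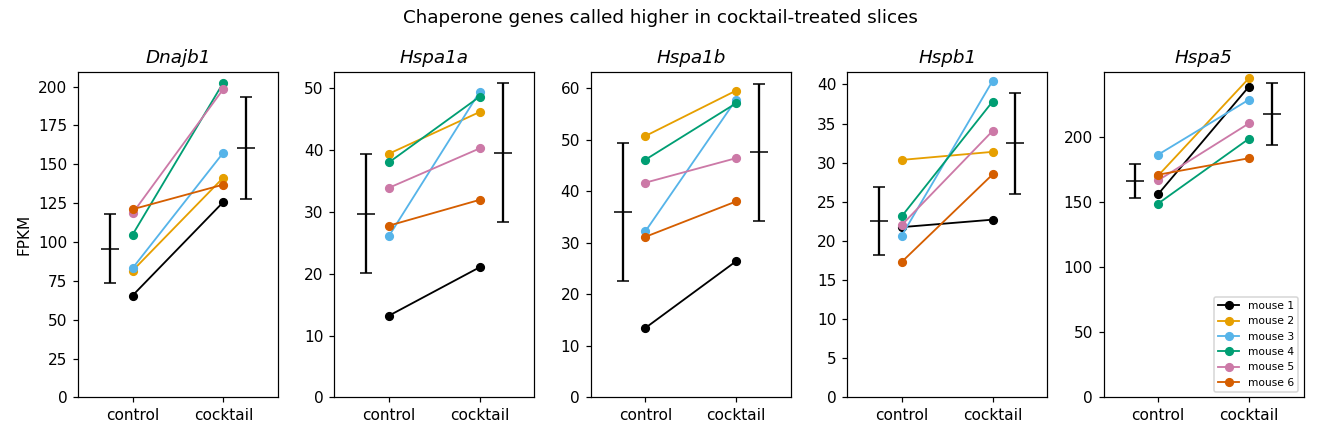
FPKM of the 5 called chaperone genes in the control and cocktail hemisphere of each mouse, joined by a line per mouse, with the mean and SD of each group (n = 6) beside the points. Every line rises, and only for Dnajb1 (65.5 to 121 against 126 to 203 FPKM) do the groups not overlap.

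Dnajb1 encodes Hsp40, the stress-inducible J-domain partner of cytosolic HSP70, and spans bases 83608175 to 83611903 of chromosome 8 in mm10. Its lowest, median and highest FPKM were 65.5, 93.9 and 121 in control and 126, 149.5 and 203 in cocktail libraries. The groups did not overlap, and the mean rose by 67.7%, from 95.7 ± 22.4 to 160.5 ± 32.7 FPKM (SD, n = 6 each). The log2 fold change was 0.75 (standard error, SE, 0.087, limma adjusted p = 0.00058), with 3310 to 7895 reads behind each value. The rise was between 0.74 and 0.95 on the log2 scale in mice 1 to 5 and 0.18 in mouse 6, the mouse in which Fos also rose least (0.57, against 0.88 or more in the others). The gene was called under each of 14 alternative fits, with an adjusted p between 8.78e-06 and 0.0218.

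Hspa1a and Hspa1b encode nearly the same inducible HSP70 protein and lie beside each other on mm10 chromosome 17, from 34969359 to 34972156 and from 34956429 to 34959238. Hspa1a had 13.2, 30.8 and 39.4 FPKM as lowest, median and highest in control and 21.1, 43.2 and 49.5 FPKM in cocktail libraries. Hspa1b had 13.5, 36.9 and 50.7 FPKM in control and 26.4, 51.7 and 59.5 FPKM in cocktail libraries. Both genes were lowest in mouse 1 in each condition, and the groups overlapped widely, since 5 of the 6 control libraries lay above the lowest cocktail library. The differences appeared within mice. Hspa1a was higher in the cocktail hemisphere by 0.20 to 0.90 (log2) in the 6 mice and Hspa1b by 0.15 to 0.92, and the fitted log2 fold changes were 0.42 (SE 0.086, limma adjusted p = 0.0324) and 0.45 (SE 0.098, limma adjusted p = 0.0428). These calls depended on single mice. The adjusted p of Hspa1a from limma was 0.0839, 0.0575, 0.0638 and 0.0908 without mouse 1, 2, 3 and 4, and that of Hspa1b was 0.0788, 0.0791, 0.1815, 0.0993 and 0.0646 without mouse 1, 2, 3, 4 and 6. With the block for mouse left out, the adjusted p was 0.9992 for each of them.

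The transcripts of the 2 genes share much of their sequence. Of the 2918 stretches of 50 bases in the Hspa1a transcript, the read length used, 1716 (58.8%) also occur in Hspa1b, and 62.3% of those of Hspa1b occur in Hspa1a. The alignment allowed 1 placement per read, and how reads from the shared stretches entered the 2 FPKM values was not tested. The ratio of Hspa1b to Hspa1a FPKM was 1.02 to 1.29 over the 12 libraries. None of the stretches of Hspa8 occurs in Hspa1a. An exon of Hspa1a also overlaps 564 bases of Gm20481 on the opposite strand in GENCODE M21, and the strand setting of the FPKM estimate is not given in the sources used here.

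Hspb1 encodes HSP27, a small heat shock protein that holds unfolded proteins without using ATP, on chromosome 5 of mm10 from 135887919 to 135889563. It had 17.3, 21.9 and 30.3 FPKM as lowest, median and highest in control and 22.7, 32.7 and 40.4 FPKM in cocktail libraries. The mean rose from 22.5 ± 4.31 to 32.5 ± 6.43 FPKM (SD, n = 6 each). Between 141 and 450 reads lay behind each value, and the log2 fold change was 0.50 (SE 0.106, limma adjusted p = 0.038). The size varied between mice, with rises of 0.61 to 0.94 (log2) in mice 3 to 6 and of 0.06 and 0.05 in mice 1 and 2. Without mouse 3, 4, 5 and 6 the adjusted p from limma was 0.1536, 0.165, 0.123 and 0.1148, and under median-of-ratios scaling it was 0.068.

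Hspa5 was the one ER member called. The gene spans bases 34772090 to 34776529 of chromosome 2 in mm10, and its protein is the main HSP70 of the ER lumen and the sensor-binding chaperone of the unfolded protein response. It had 149, 168 and 186 FPKM as lowest, median and highest in control and 183, 219 and 245 FPKM in cocktail libraries, so that 1 control library lay above the lowest cocktail library. The mean rose by 30.6%, from 166 ± 13.0 to 217 ± 24.0 FPKM (SD, n = 6 each), and the log2 fold change was 0.38 (SE 0.062, limma adjusted p = 0.0075). The rise was 0.61 in mouse 1, 0.29 to 0.52 in mice 2 to 5 and 0.10 in mouse 6. Hspa5 was called under each of the 14 alternative fits, with an adjusted p between 0.0023 and 0.0499. For each of the 5 called members, flipping the signs of the 6 within-mouse differences in an exact permutation test (two-sided) gave p = 0.03125. This is the lowest that 6 pairs can give, and any gene higher in all 6 mice reaches it. The uncalled Hspb6, Hspb8 and Dnajb9 had the same value.

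Because these 5 genes carry the calls, the 250 bases before the start of each are shown, from RefSeq on GRCm38.p6 (the assembly of mm10), read 5′ to 3′ on the strand of the gene. Capitals mark the heat shock element dimer GAANNTTC in Hspa1a, Hspa1b and Hspb1 and the ERSE, CCAAT and CCACG with 9 bases between them, in Hspa5, and Dnajb1 has no capitals. The windows are chr17:34972157-34972406 (minus strand) for Hspa1a, chr17:34959239-34959488 (minus strand) for Hspa1b, chr5:135887669-135887918 (plus strand) for Hspb1, chr8:83607925-83608174 (plus strand) for Dnajb1 and chr2:34771840-34772089 (plus strand) for Hspa5.
Hspa1a: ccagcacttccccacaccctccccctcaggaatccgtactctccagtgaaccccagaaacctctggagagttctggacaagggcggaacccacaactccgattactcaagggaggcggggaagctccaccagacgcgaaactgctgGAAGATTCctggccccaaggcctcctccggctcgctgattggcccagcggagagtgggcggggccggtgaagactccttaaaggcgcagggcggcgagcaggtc
Hspa1b: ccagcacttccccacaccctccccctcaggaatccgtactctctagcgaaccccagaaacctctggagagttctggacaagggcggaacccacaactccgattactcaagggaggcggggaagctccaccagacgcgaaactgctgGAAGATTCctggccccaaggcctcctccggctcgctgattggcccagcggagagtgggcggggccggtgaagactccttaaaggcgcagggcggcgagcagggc
Hspb1: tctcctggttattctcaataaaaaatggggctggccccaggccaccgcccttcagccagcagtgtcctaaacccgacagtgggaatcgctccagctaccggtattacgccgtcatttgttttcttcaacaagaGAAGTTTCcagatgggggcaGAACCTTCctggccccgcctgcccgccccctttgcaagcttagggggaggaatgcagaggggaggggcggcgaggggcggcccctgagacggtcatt
Dnajb1: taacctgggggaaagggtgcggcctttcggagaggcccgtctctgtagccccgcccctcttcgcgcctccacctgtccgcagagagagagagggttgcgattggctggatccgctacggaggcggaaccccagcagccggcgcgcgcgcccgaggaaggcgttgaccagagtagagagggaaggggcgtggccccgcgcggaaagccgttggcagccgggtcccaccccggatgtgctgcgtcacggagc
Hspa5: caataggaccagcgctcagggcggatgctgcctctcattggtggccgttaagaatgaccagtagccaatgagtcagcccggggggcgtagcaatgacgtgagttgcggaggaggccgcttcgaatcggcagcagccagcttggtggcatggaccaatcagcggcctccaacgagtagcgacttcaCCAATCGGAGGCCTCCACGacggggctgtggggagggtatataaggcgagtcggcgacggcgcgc

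The Hspa1a and Hspa1b windows were identical at 247 of 250 bases, with the differences C44T, T47C and T249G (Hspa1a base first, counted from 1 at the 5′ end of the window), and both held the dimer GAANNTTC 104 to 97 bases before the start. Hspb1 held this dimer at 2 places, 117 to 110 and 97 to 90 bases before the start. Windows were at hand for 35 of the 44 members. Hspa8, Hsp90aa1, Hsp90ab1, Hspa9, Hspa13, Cryab, Dnajc5, St13 and Hsf1 had none and were not searched. Motifs were searched on both strands, and the dimer GAANNTTC, which reads the same on both, was in 10 of the 35 (28.6%) against 6.69% of all 32851 windows, in 3 of the 5 called members and in 7 of the 29 uncalled members tested (the remaining window is that of Hspa1l). The other members with it were Hspb6, Dnaja1, Dnaja4, Dnajb6, Fkbp4, Hspd1 and Hspe1, so it was present in genes of either kind. The dimer in the other orientation, TTCNNGAA, was in 4 of the 35 windows (Hsph1, Dnajb6, Hspd1 and Hspe1), against 7.17% of all windows. The run of 3 units, which contains both dimers, was in Dnajb6, Hspd1 and Hspe1, against 0.466%. Hspd1 and Hspe1 start at bases 55087932 and 55088148 of chromosome 1 and run in opposite directions, so their windows overlap. Sites in the shared stretch count for both genes in each of these 3 counts, and the 2 genes are not separate cases. The ERSE was in 3 of the 35 windows, all of ER members (Hspa5, Hsp90b1 and Dnajc3), against 0.113% of all windows. Of these 3 genes, Hspa5 was called. The AP-1 motif TGANTCA, the site of Fos and Jun proteins, was in the windows of Bag3 and Hspa5, against 6.75% of all windows, and the cyclic AMP response element TGACGTCA was in that of Trap1, against 1.55%. A match of letters is a description of the sequence, and binding was not measured here.

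The remaining inducible cytosolic members were higher by less, or in fewer mice, and did not pass the test. Bag3, which joins HSP70 to the small heat shock proteins in selective autophagy, was the uncalled member with the largest log2 fold change (0.38, standard error 0.093, adjusted p = 0.0847 from limma). It had 6.76, 8.20 and 10.3 FPKM as lowest, median and highest in control and 5.99, 12.4 and 13.4 FPKM in cocktail libraries. The cocktail value of mouse 6 lay below every control library and the other 5 above every one, and without mouse 6 Bag3 was called (limma adjusted p = 0.0043, with 0.0043 to 0.672 over all alternatives). Hsp90aa1 had 185, 314.5 and 349 FPKM in control and 298, 334 and 346 FPKM in cocktail libraries, and its log2 fold change of 0.19 (SE 0.083, limma adjusted p = 0.595) went down to 0.086 without mouse 1. Hsph1, the HSP110 exchange factor of HSP70, had 86.0, 114 and 129 FPKM in control and 104, 121 and 129 FPKM in cocktail libraries, with 3 of 6 mice higher and a log2 fold change of 0.09 (SE 0.064, limma adjusted p = 0.83) that was 0.02 without mouse 1. Chordc1, an HSP90 co-chaperone, had 9.82, 20.2 and 22.5 FPKM in control and 15.6, 18.3 and 20.7 FPKM in cocktail libraries. It was higher in 2 of 6 mice, and its log2 fold change went from 0.05 to -0.06 without mouse 1.

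The constitutive cytosolic members had high levels and small differences. Hspa8 had 871, 999 and 1054 FPKM as lowest, median and highest in control and 1006, 1114 and 1137 FPKM in cocktail libraries. Of the 6 cocktail libraries, 5 lay above every control library, and the log2 fold change was 0.15 (SE 0.053, limma adjusted p = 0.366). Its mean level was 986 ± 66.0 in control and 1095 ± 49.2 in cocktail libraries (SD, n = 6 each). Hsp90ab1 had 280, 386 and 413 FPKM in control and 340, 379 and 414 FPKM in cocktail libraries, with a log2 fold change of 0.07 (SE 0.060, limma adjusted p = 0.85) that was 0.03 without mouse 1. Dnajc5, the cysteine-string protein of synaptic vesicles, had the lowest log2 fold change of the cytosolic members (-0.03, SE 0.044, limma adjusted p = 0.90, and -0.06 without mouse 1), with 96.1, 102 and 106 FPKM in control and 95.5, 97.6 and 104 FPKM in cocktail libraries. Hspa12a (-0.011) and Dnajb2 (-0.029) were the other cytosolic members with a negative value in the fit of all 6 mice. Without mouse 1 these values were -0.033 and -0.054. Hspa4, Hspa4l, Dnaja2, Stip1, Chordc1, Ahsa1, St13 and Fkbp4 were also below 0 in that fit, so the number of negative members depended on mouse 1.

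The small heat shock proteins had the largest median log2 fold change of the classes (0.29 over 4 genes), although 1 of the 4 was called. Hspb6 (HSP20) was at 3.94 to 6.21 FPKM in control and 5.55 to 7.84 FPKM in cocktail libraries, higher in all 6 mice, with a log2 fold change of 0.37 (adjusted p = 0.0839 from limma). Hspb8, the partner of Bag3, was also higher in all 6 mice, at 5.08 to 6.39 and 5.39 to 8.33 FPKM, with a log2 fold change of 0.22 (adjusted p = 0.2455 from limma). Cryab, or alpha-B-crystallin, was the most abundant of the class at 97.4 ± 4.20 FPKM in control slices and 102 ± 15.9 FPKM after the cocktail (SD, n = 6 each), and 4 of 6 mice were higher. Each value of Hspb6 rested on 53 to 133 reads. Its exons overlap 122 bases of Proser3 on the opposite strand.

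Among the 12 J-domain members, Dnajb1 stood at 0.75 and the next were Dnajb9 (0.34), Dnajb4 (0.24), Dnaja1 (0.21) and Dnaja4 (0.19). The latter 3 were cytosolic and uncalled, with an adjusted p of 0.527, 0.482 and 0.328 from limma, and each was higher in 5 of 6 mice, most of all in mouse 1 (0.86, 0.70 and 0.42). Without mouse 1 the log2 fold changes were 0.12 for Dnajb4, 0.11 for Dnaja1 and 0.14 for Dnaja4. The co-chaperones of HSP90 and HSP70 other than Bag3 lay between 0.01 (Fkbp4) and 0.07 (Bag1), with Stip1, St13, Ahsa1 and Chordc1 in between, and none was called. Without mouse 1 the same genes lay between -0.06 (Chordc1) and 0.02 (Bag1).

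**Figure D3:**
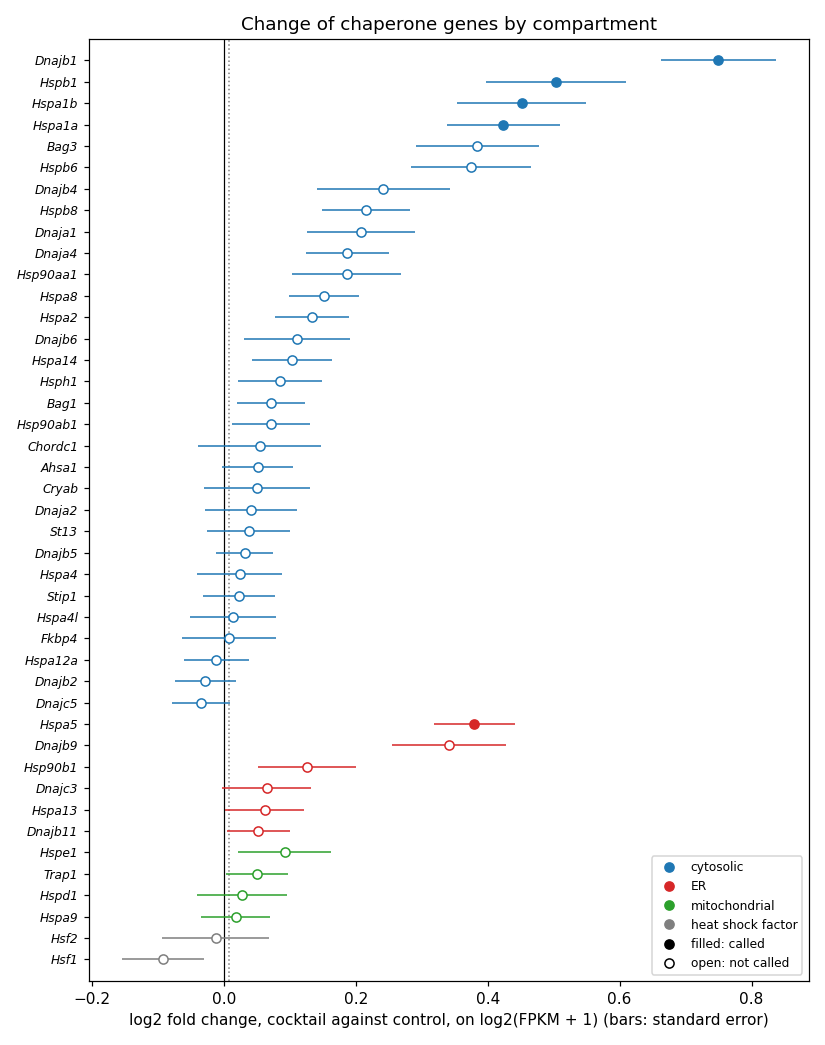
Log2 fold change, cocktail against control, on the log2(FPKM + 1) scale, of the 43 tested chaperone genes with the standard error from limma, grouped by compartment, with filled points for genes called and a dotted line at the median of all loci tested. The 5 filled points lie between 0.38 and 0.75, and the 4 mitochondrial genes lie between 0.02 and 0.09.

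The ER members other than Hspa5 were not called. Dnajb9 (ERdj4), a J-domain partner of Hspa5, had 35.2, 43.3 and 48.8 FPKM as lowest, median and highest in control and 45.1, 57.1 and 64.8 FPKM in cocktail libraries. It was higher in all 6 mice, by 0.10 to 0.86 (log2), with a log2 fold change of 0.34 (SE 0.087, limma adjusted p = 0.1036) that was 0.24 without mouse 1. Hsp90b1 (GRP94), the HSP90 of the ER, had 59.5, 80.7 and 93.6 FPKM in control and 78.5, 86.5 and 99.1 FPKM in cocktail libraries, a log2 fold change of 0.13 (SE 0.075, limma adjusted p = 0.768) that was 0.035 without mouse 1. Dnajb11 (ERdj3), another partner of Hspa5, had 23.5, 26.5 and 30.4 FPKM in control and 23.1, 27.0 and 31.9 FPKM in cocktail libraries, and its log2 fold change of 0.05 was the lowest of the ER members. Dnajc3 and Hspa13 had 0.06 each. Without mouse 1 the values were 0.02 for Dnajb11, -0.001 for Dnajc3 and 0.007 for Hspa13.

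The mitochondrial members showed no call, and the largest log2 fold change among them was 0.09 (0.05 without mouse 1), that of Hspe1. Hspd1 (HSP60), the ring of the mitochondrial chaperonin, had 39.2, 55.2 and 59.7 FPKM as lowest, median and highest in control and 50.8, 53.2 and 58.8 FPKM in cocktail libraries. Hspe1 (HSP10), its lid, had 35.8, 47.0 and 57.5 FPKM in control and 45.0, 48.8 and 56.5 FPKM in cocktail libraries. Their log2 fold changes were 0.03 (SE 0.068) and 0.09 (SE 0.071), and the genes share 112 exonic bases on opposite strands. Hspa9 (mortalin), the mitochondrial HSP70, had 60.2, 66.4 and 73.9 FPKM in control and 62.9, 67.4 and 72.5 FPKM in cocktail libraries, with a log2 fold change of 0.02 (SE 0.052). Without mouse 1 the values of Hspd1 and Hspa9 were -0.04 and -0.03. Trap1, the mitochondrial HSP90, went from 20.4 ± 0.754 to 21.2 ± 0.940 FPKM (SD, n = 6 each), or by 0.05 on the log2 scale.

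By compartment, the median log2 fold change was 0.09 for the 31 cytosolic members tested, 0.10 for the 6 ER members and 0.04 for the 4 mitochondrial members, against 0.01 for all loci tested. Called members were 4 of 31, 1 of 6 and 0 of 4, against 1.5% of all loci tested, and the numbers in the ER and mitochondria are too small to compare. Of the 43 members, 38 had a value above 0, against 54.4% of loci. Without mouse 1 the number was 27, and the share of loci was not computed for that fit. The medians without mouse 1 were 0.04, 0.03 and 0.003, against -0.01 for all loci.

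The compartments can be set against each other through proteins of one family measured in the same libraries. Within-mouse differences were compared between the HSP70 genes Hspa8 (cytosol), Hspa5 (ER) and Hspa9 (mitochondria) and between the HSP90 genes Hsp90ab1, Hsp90b1 and Trap1, in 6 pairs chosen after the values were seen. The rise of Hspa5 was larger than that of Hspa8 in 6 of 6 mice, by 0.23 ± 0.112 (log2, SD, n = 6), and larger than that of Hspa9 in 6 of 6 mice, by 0.36 ± 0.131. Hspa8 in turn exceeded Hspa9 in 6 of 6 mice, by 0.13 ± 0.066. Each of these 3 comparisons gave p = 0.03125 when the signs were flipped in an exact permutation test (two-sided), the lowest that 6 mice can give. The adjusted p was 0.0625 over the 6 pairs, so none passed after adjustment. Other HSP70 genes of the same compartments did not follow this order. The log2 fold change was 0.42 for Hspa1a and 0.45 for Hspa1b in the cytosol, against 0.38 for Hspa5. It was 0.06 for Hspa13 in the ER, against 0.15 for Hspa8. For the HSP90 genes the differences were 0.05 ± 0.128 for Hsp90b1 over Hsp90ab1, 0.08 ± 0.234 for Hsp90b1 over Trap1 and 0.02 ± 0.186 for Hsp90ab1 over Trap1. In each of these HSP90 pairs the first gene rose more in 4 of 6 mice (exact permutation p = 0.375, 0.53125 and 0.78125). Without mouse 1 the log2 fold changes were close to each other, at 0.035 for Hsp90b1, 0.029 for Hsp90ab1 and 0.038 for Trap1.

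The heat shock factors themselves were not called. Hsf1, the main regulator of the cytosolic response, had 15.2, 17.2 and 18.2 FPKM as lowest, median and highest in control and 14.0, 15.9 and 17.5 FPKM in cocktail libraries. Its log2 fold change was -0.09 (SE 0.062, limma adjusted p = 0.79), with 2 of 6 mice higher, and it was -0.04 without mouse 1. Hsf2 had 7.05 ± 1.13 FPKM in control and 6.93 ± 0.623 FPKM in cocktail libraries (SD, n = 6 each), which differ by -0.01 on the log2 scale and by -0.09 without mouse 1. HSF1 is activated at the protein level, which RNA does not show.

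The within-mouse differences varied from mouse to mouse. In mouse 1, 41 of the 43 members were higher in the cocktail hemisphere, with a median log2 difference of 0.37, against 64.9% of loci. The medians were 0.08, 0.12 and 0.03 in mice 2 to 4, with 32, 35 and 28 members higher, against 50.3%, 58.2% and 42.6% of loci, and -0.02 in both mouse 5 and mouse 6, with 17 and 18 members higher, against 37.6% and 43.4% of loci. Of the called genes, Dnajb1, Hspa1a and Hspa5 rose least in mouse 6. The plot of within-mouse differences shows a mouse 1 column that is high for nearly every member, while the 5 called genes stay above 0 across all columns.

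**Figure D4:**
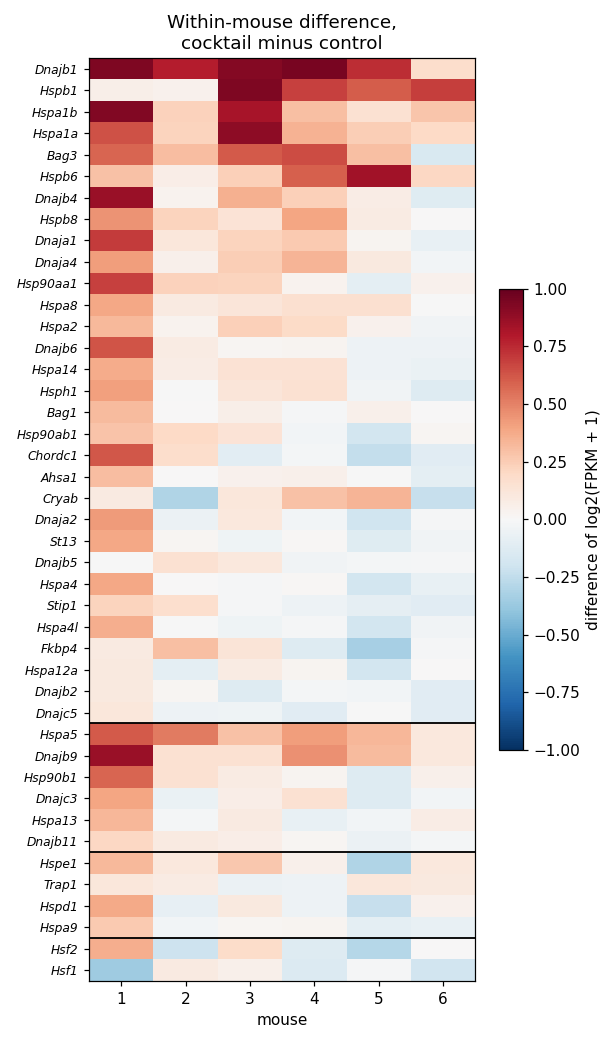
Difference of log2(FPKM + 1), cocktail minus control, for each tested chaperone gene (rows, grouped by cytosol, ER, mitochondria and factors) in each mouse (columns), red for higher and blue for lower in the cocktail hemisphere. Mouse 1 is red in 41 of 43 rows, and mice 5 and 6 in 17 and 18.

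The spread between control hemispheres differed widely among the members. The SD of log2(FPKM + 1) over the 6 control libraries was 0.67 for Hspa1b, above 99.9% of loci, 0.56 for Hspa1a, 0.43 for Chordc1 and 0.35 for Dnajb1, the highest of the 43 members. It was 0.19 for the inducible genes Bag3 and Hsph1, under the median of the members, and 0.05 for Trap1 and Dnajc5. Mouse 1 had the lowest control value of Hspa1b, Hspa1a, Chordc1 and Dnajb1. Leaving mouse 1 aside, control values ran from 31.1 to 50.7 FPKM for Hspa1b and from 26.1 to 39.4 FPKM for Hspa1a. They ran from 15.6 to 22.5 FPKM for Chordc1 and from 81.5 to 121 FPKM for Dnajb1. The median SD over members was 0.20 in control and 0.11 in cocktail libraries, against 0.14 and 0.11 over all loci. The control SDs and their medians include mouse 1 and were not computed without it. Whether a mouse with a high level in one hemisphere also had it in the other was examined over the 6 mice. Pearson's r between hemispheres was above 0 for 29 of 43 members, with a median of 0.24. None passed after adjustment over the 43 members for r (smallest adjusted p = 0.179, exact permutation of pairings) or for Spearman's rho. An unadjusted exact p under 0.05 was found for 4 members with r and 3 with rho. The same counts over all loci were not computed, so these numbers do not set the members apart from other genes. The smallest was that of Chordc1, with r = 0.91 (exact permutation p = 0.0042) and rho = 0.94 (exact permutation p = 0.0167, adjusted p = 0.358). Its r was 0.66 without the 2 mice farthest from the median of its control values. Dnajb5, a J-domain protein, had r = 0.97 (exact permutation p = 0.0097, adjusted p = 0.209) and rho = 0.89 (exact permutation p = 0.0333, adjusted p = 0.418), and r was 0.97 without the 2 mice farthest from the median. Hspa1b had r = 0.89 (exact permutation p = 0.0208, adjusted p = 0.299) and rho = 0.83 (exact permutation p = 0.0583, adjusted p = 0.418), and r was 0.42 without those 2 mice, one of them mouse 1.

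Further genes of the same pathways, listed apart from the members, were described in the same way. Of 28 other cytosolic chaperones, including the subunits of the TRiC chaperonin, 0 were called by limma, against 1.5% of all loci. In this list and the next 2, which are short, 0 calls are near that share. At an unadjusted p under 0.05, 1 of them was higher, against 5.24% of all loci. Their median log2 fold change was 0.04, with the largest change in Dnajb14 (0.18). Genes were put in this list by hand, and where the protein of Dnajb14 works was not checked. Of 16 other ER folding genes, 0 were called and 1 was higher at that unadjusted threshold, which is near the 5.24% of all loci. Their median was 0.03, and P4hb, a protein disulfide isomerase, had the largest change (0.19, adjusted p = 0.195 from limma). Of 11 other mitochondrial chaperones and proteases, 0 were called and 1 was lower at that threshold. Of all 12032 loci, 968 passed it in either direction, 631 of them higher. The median of the 11 was -0.02, and Clpp, a matrix protease, had the largest change (-0.13, adjusted p = 0.388 from limma). The regulators of the unfolded protein and integrated stress responses had 3 of the 11 tested called higher, against 1.22% of all loci, and 0 lower. Their median was 0.14. The 3 were Atf3, a stress-inducible transcription factor (0.89, adjusted p = 0.00053), Ppp1r15a, which encodes the eIF2alpha phosphatase subunit GADD34 (0.51, adjusted p = 0.0021), and Ddit3, which encodes CHOP (0.27, adjusted p = 0.0338). The call of Ddit3 was lost without mouse 2, 3, 5 or 6 (limma adjusted p = 0.1424, 0.1542, 0.1197 and 0.0922) and also under either other scaling (0.0563 and 0.0709), with no filter (0.0785), without the mouse as a block (0.1638) and with voom (0.4291), and that of Ppp1r15a with voom (adjusted p = 0.0551). Atf3 had 11.6, 19.8 and 28.3 FPKM as lowest, median and highest in control and 30.3, 34.5 and 50.4 FPKM in cocktail libraries, with no overlap. Atf3 and Ppp1r15a are also induced by neuronal activity and by mitogens. Atf4 (0.19, adjusted p = 0.165) and Xbp1 (0.18, adjusted p = 0.216) were not called, and Trib3 was below the level tested.

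The cell makeup of the libraries was compared through marker genes. In bulk tissue, fewer cells of a type and less RNA per cell cannot be told apart. The cortical excitatory markers were present, with Slc17a7 at 625 to 743 FPKM in control and 624 to 681 FPKM in cocktail libraries, and none of the markers tested was called, whether of neurons (excitatory or inhibitory), glia (astrocytes, oligodendrocytes and microglia), endothelium, choroid plexus or striatum. The summed FPKM of the 6 astrocyte markers ran from 445 to 593 (control) and from 537 to 600 (cocktail), and that of the 6 oligodendrocyte markers was 1998 to 2566 and 2301 to 2645. Their median log2 fold changes were 0.06 and 0.12, and their part in the chaperone values was not tested. Those of the excitatory and inhibitory neurons were -0.03 and 0.08, and those of the microglia, endothelium and striatum were 0.01, 0.04 and -0.01. By mouse, the median difference of the astrocyte markers was 0.45 (log2) in mouse 1 and between -0.09 and 0.05 in the others. Each of the 5 blood markers was at most 1.34 FPKM in every library, and Ttr of the choroid plexus was at most 0.0455 FPKM.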

How the data were processed

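Poly-A RNA of auditory cortex was sequenced with strand-specific single reads of 50 bp in 6 control and 6 cocktail libraries. The authors removed ribosomal reads with BWA 0.6.1, aligned to mm10 with TopHat 1.4.1 allowing 1 placement per read, and deposited FPKM from Cufflinks 1.3.0, estimated with bias correction and scaled to fragments on protein-coding RefSeq genes. Their table of an HTSeq and DESeq2 comparison holds fold changes and p-values per gene and was not used here.

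FPKM values were used as deposited. Reads behind a value were recovered from its confidence interval, taken as 2 Poisson SDs to each side. Of 36048 values under 20 reads, 83.4% were whole to within 0.05. Intervals from reads would cover counting error only.

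Loci were kept at a mean FPKM of 1 or more, which left 12032, and log2(FPKM + 1) was fitted by limma 3.58.1 (R 4.3.3) with the mouse as a block, a variance trend and Benjamini-Hochberg adjustment at 0.05. The labels give the mouse of each hemisphere. Deviations from group means correlated by 0.216 to 0.406 across loci within mice (6 pairs, median 0.337). Between different mice they correlated by -0.420 to 0.445 (30 pairs, median -0.07), so the highest value between mice lay above every value within mice. Deviations from a group mean cancel out over its mice, which by itself lowers the values between mice. The lower median between mice is therefore no separate check of the pairing. Tested on simulated data for this comparison with 12032 genes, the fit called 28 of 50 genes raised by 0.3, 47 of 50 raised by 0.6, 50 of 50 raised by 1 and 44 of 50 lowered by 0.6 (log2), with 9 calls among 11832 unchanged genes.

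Members were matched by symbol, each at 1 locus, and compartments were assigned by hand. The members and all lists were chosen with earlier results of these data known. Named individually were members called, the usual inducible and constitutive genes of each compartment, the uncalled members with the largest and lowest change per compartment, and from the other lists the called genes or the largest change. Other members, marker genes with levels, and Atf4 and Xbp1 were named after their values were seen. Promoter windows were from RefSeq GRCm38.p6 and exon overlaps from GENCODE M21. Scripts used Python 3.11.15 and matplotlib 3.10.9. Alternatives covered the pseudocount, filter, scaling, variance trend, block, each mouse left out, and voom on recovered reads.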

Additional observations from a re-analysis of the deposited data

Results flagged for a closer look

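Among 57 groups of 6 values for the named members, 4 held a library or mouse far from the other 5 by Dixon's test. Chance flags about 1 in 20 groups, which comes to 2.85 of 57. The within-mouse difference of Dnajb1 was 0.177 (log2) in mouse 6, where the remaining 5 had 0.740 to 0.947. The cocktail FPKM of Bag3 was 5.99 in mouse 6, against 11.4 to 13.4 in the others. The control FPKM of Hspd1 was 39.2 in mouse 1, against 53.9 to 59.7. The within-mouse difference of Hspa9 was 0.265 (log2) in mouse 1, against -0.101 to 0.025. Mouse 1 and mouse 6 account for 2 of the 4 each.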

How the results depend on the processing

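The number of members called, 5 in the analysis reported, was 2 with no filter on low values (123 loci called), 3 with no variance trend (173 loci), 2 without the replicate block (the mouse), 2 with voom on recovered reads, and 2 to 4 without 1 mouse at a time. The number of loci called was 180, and it was 88 without the replicate block, 118 with voom and 104 to 183 with each mouse left out. With no filter, more loci (17477) were tested; otherwise the cause was not tested. Dnajb1 and Hspa5 were called under all 14 alternatives, while Hspa1a lost its call under 7, Hspa1b under 10 and Hspb1 under 10 of them. Without the replicate block the adjusted p from limma was 0.9992 for Hspa1a, 0.9992 for Hspa1b and 0.1246 for Hspb1. Hspa9 went from 0.02 to -0.0042 under quantile normalization, and over the fits without 1 mouse the log2 fold changes ranged from -0.0318 to 0.0415 for Hspa9, from -0.0435 to 0.0786 for Hspd1 and from -0.0589 to 0.1117 for Chordc1, the negative values being those without mouse 1. Of 266 values for 19 named members, 234 kept direction and call, 27 lost the call, 1 gained it (Bag3 without mouse 6) and 4 turned direction. An adjusted p under 0.1 in place of 0.05 added Bag3 and Hspb6, giving 7 members among 236 loci. Depth limited Hspa1l, with 4 to 14 reads, and Hspb6, with 53 to 133 reads, most among the members named.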
